A study of Homo sapiens with 6 samples.

Results

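DNA replication and repair genes were followed through a miR-CLIP experiment on miR-146a in fibroblasts that express oncogenic RAS. The set held 55 genes, named one by one as E2F factors and cyclin E, origin licensing and firing factors, replication fork and chromatin assembly proteins, checkpoint kinases, and repair proteins. All 55 were found by symbol among the 18234 genes of the deposited table, and all 55 passed the filter on low values. The rule for membership is the gene name and uses no measured value, but the set was drawn up with earlier results of these data known.

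The libraries came from IMR90, a line of normal human lung fibroblasts. Cells of both groups carried a retrovirus for RASV12, an active mutant form of RAS, and a miR-146a mimic modified with psoralen, which crosslinks RNA under light, and biotin, which streptavidin captures. Puromycin at 1.5 ug/ml was applied for 3 days, cells were seeded on day 10 after infection, and the mimic was added 24 hours later, per the labels' protocols. The miR-CLIP group had 3 libraries and the Input group had 3 libraries, each carrying the letter A, B or C. Where 3 values are given for a group, they are in the order of those letters. The protocol text, the same for every sample, gives an immunoprecipitation of AGO2 and then a streptavidin purification, and the step at which Input RNA was set aside is not stated. An empty vector and an unmodified mimic are named in the protocol, but no library here carries either of those labels, so every library came from cells with RASV12 and the modified mimic. The labels do not say that libraries of a group were separate cultures, so the p-values cover the spread from library to library alone, and part of it may be technical. In bulk RNA, fewer cells that express a gene and less of its RNA per cell cannot be told apart.

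Cells copy their genome once per division. CDC6 and CDT1 load the replicative helicase at origins, geminin blocks a second loading, and CDC7, CDC45 and the GINS complex turn loaded helicase into moving forks. E2F transcription factors switch on many of these genes when cyclin E and its kinase release them from RB proteins. ATR and ATM are kinases that sense stalled forks and broken DNA, and crosslink repair and nucleotide excision repair mend the lesions. RAS-induced senescence is known for a burst of abnormal replication and then a lasting cell cycle exit in which E2F targets are repressed. A microRNA in AGO2 pairs mainly through its seed with sites in 3′ UTRs.

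The mature miR-146a-5p sequence is shown because its seed, bases 2 to 8 in capitals, sets which sites were searched. It is 22 nucleotides long and lies at chr5:160485372-160485393 on the plus strand (RefSeq, GRCh38.p14).
hsa-miR-146a-5p: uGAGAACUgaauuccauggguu

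Sites were searched as AGTTCTC, the match to the whole seed (7mer-m8), and as GTTCTCA, the match that ends in an A opposite base 1 (7mer-A1). Both were searched on the transcript strand of the longest annotated 3′ UTR in GENCODE release 29 on GRCh38, and a site holding both is an 8mer. Of the 55 genes, 11 held at least 1 site (20%), against 1300 of 6292 tested coding genes with a 3′ UTR (20.7%). The AGTTCTC form was present in 7 of the 55 (12.7%), against 770 of the 6292 (12.2%). The shares in the set were thus near those of coding genes in general. Windows of 28 or 29 bases around 4 of these sites follow, with the site in capitals: the 8mers and the sites of ERCC6 and FANCC, whose values are described further on.
FANCM, chr14:45200696-45200724 on the plus strand, an 8mer: atgctgttctagtgatAGTTCTCAgagga
GINS1, chr20:25448470-25448498 on the plus strand, an 8mer: gccttgctaaactgtgAGTTCTCAtggtg
ERCC6, chr10:49457082-49457109 on the minus strand: aaattgtgtcttccttGTTCTCAgggtg
FANCC, chr9:95100973-95101000 on the minus strand: attaattcagttagttAGTTCTCttgtt

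The other genes with a site were ATR, CDC6, CHAF1B, E2F2, ERCC4, GINS2 and HELLS.

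The rows held gave 9378463, 8088221 and 6847837 reads in the miR-CLIP libraries, against 12771968, 9379996 and 9295325 reads in the Input libraries. These are totals over the rows held and not over whole libraries. Values are normalised read counts, gene read counts divided by 1 factor per library, in which 1 read was worth 0.993 to 1.25 in miR-CLIP and 0.612 to 0.867 in Input. Summed markers of fibroblasts, with 8 of 9 genes in the table, ran from 162890 to 210995 in miR-CLIP and from 141767 to 216816 in Input. Epithelial markers (6 genes) summed to 536 to 2254 in miR-CLIP and 1016 to 1362 in Input, endothelial markers (4 genes) to 124 to 237 in miR-CLIP and 157 to 246 in Input, and blood markers (6 genes) to 11.4 to 41.3 in miR-CLIP and 9.15 to 25.7 in Input. The fibroblast sum was far above the others in every library, as the label has it. Most of the epithelial sum was KRT18, with 454, 2000 and 946 in the miR-CLIP libraries, against 979, 1180 and 860.4 in the Input libraries, while CDH1 was at 0 in all 3 miR-CLIP libraries and at most 0.867 in Input. The epithelial sum was highest in miR-CLIP B, and its part in the results was not tested.

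The 55 genes together made up 0.407%, 0.339% and 0.393% of the normalised signal of the rows held in the miR-CLIP libraries, against 0.342%, 0.329% and 0.306% in the Input libraries. The share was higher in miR-CLIP A and C than in all 3 Input libraries, and miR-CLIP B lay just below Input A. Input levels ran from 2.17 normalised read counts on average for ATRIP to 6200 for DDB1, with a median of 130. Of the 55 genes, 8 averaged 1000 or more in Input, 23 averaged under 100 and 1 averaged under 10. Reads were absent for 3 genes in miR-CLIP C (GMNN, E2F8 and ATRIP) and for none in the other 5 libraries.

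Set side by side per kilobase of transcript, Input levels were highest for DDB1, ERCC1 and E2F7. DDB1, the damage-binding adaptor of the CUL4 ubiquitin ligase, had 1376 ± 107 normalised read counts per kb in Input (SD, n = 3). ERCC1, a subunit of a nuclease that cuts beside lesions, had 702 ± 75.9, and E2F7, an atypical E2F that represses E2F targets, had 687 ± 48.0 (SD, n = 3 each). ERCC1 and E2F7 overlapped within that spread. DDB1 shares 521 exonic bases with TKFC and ERCC1 shares 1593 with CD3EAP, each on the opposite strand. The strand setting of the counting is not known, so reads cannot be told apart there. The lowest were ATRIP, the partner of ATR, at 0.473 ± 0.396 per kb, E2F2, an activator, at 3.47 ± 2.02, and E2F8, an atypical repressor, at 4.76 ± 2.27 (SD, n = 3 each), and E2F2 and E2F8 did not differ beyond their spread. The E2F genes thus spanned most of the range in Input: E2F4, a repressor found in resting cells, had 385 ± 45.5 per kb and E2F3, an activator, 323 ± 5.25, against 69.5 ± 7.39 for E2F1, the best known activator (SD, n = 3 each).

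**Figure D1:**
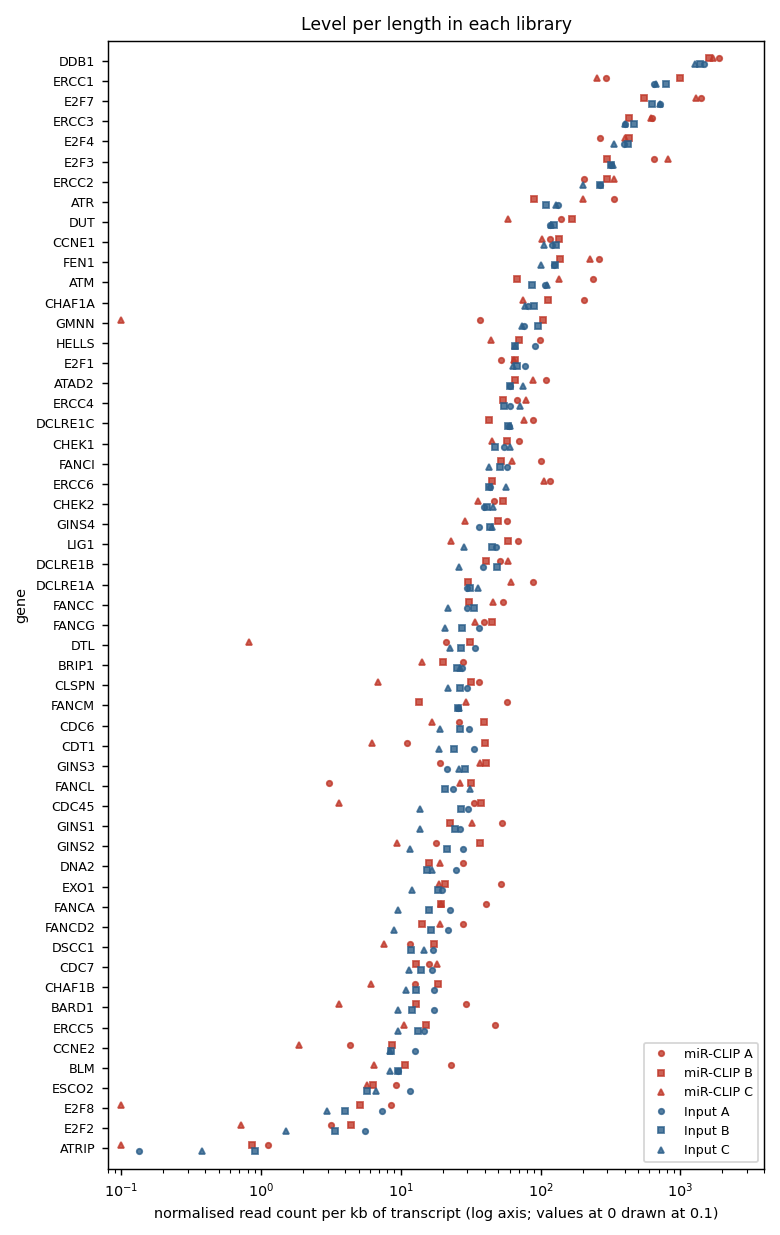
Normalised read count per kb of transcript (x axis, log scale) for each of the 55 genes (y axis, ordered by mean Input level), with 1 point per library, miR-CLIP in red and Input in blue. DDB1, ERCC1 and E2F7 stand at the top and ATRIP at the bottom; libraries with 0 reads are drawn at the left edge.

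The comparison of miR-CLIP with Input asks which RNAs came down with AGO2 and the tagged mimic. None of the 55 genes passed the limma test after Benjamini-Hochberg adjustment over the 8506 genes tested, at a threshold of 0.05: 0 were higher and 0 lower, against 0% of all tested genes in either direction. Adjusted p-values of the members ran from 0.611 to 0.999 by limma. At an unadjusted p under 0.05, 1 of the 55 was higher by limma (FEN1) and 0 were lower, against 2.4% of tested genes higher and 4.04% lower. By edgeR on recovered reads, 0 members passed the adjusted threshold and ERCC6 and FEN1 were higher at an unadjusted p under 0.05, against 4.21% of tested genes higher and 2.37% lower. By DESeq2, which called 0.0235% of tested genes higher, 0 members passed and E2F3, ERCC6 and FEN1 were higher at an unadjusted p under 0.05, against 5.43% of tested genes higher and 2.5% lower. These shares of members are near those of all genes. The 3 libraries of one group lay apart from the 3 of the other for 2 members (3.64%), both higher in miR-CLIP (FEN1 and DDB1), and for 0 members lower, against 5.64% of tested genes higher and 7.34% lower.

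As a description of the list, the median log2 fold change of miR-CLIP over Input was 0.14 over the 55 genes and -0.13 over all 8506 tested genes. Of the 55, 34 had a positive value and 21 a negative one (61.8% positive), against 3660 positive and 4846 negative over all genes (43.0% positive). Over the 6347 tested coding genes the median was -0.07, with 2890 positive and 3457 negative. With the trend on transcript length removed, 27 members were positive and 28 negative. All fold changes are on the log2(value + 1) scale. The fit averages log values, so a library at or near 0 weighs heavily. By edgeR on recovered reads, E2F8 was at -0.08, FANCL -0.33, CLSPN -0.08, CDT1 -0.44 and ERCC1 -0.47. Each of these was nearer to 0 than the limma value below. CDC45 was at 0.05, BARD1 at 0.22 and GINS2 at 0.04 by edgeR, each of the opposite sign to limma. Not all of these genes had a library near 0, as the lowest value of ERCC1 was 973, in miR-CLIP C. The cause of each shift was not tested. Scaling by upper quartiles moved the median of all genes to -0.34 and that of the members to -0.10, with 23 members positive and 32 negative. The signs of small values therefore hold only relative to the scaling, while the members' median stayed above that of all genes, by 0.11 to 0.38, under each alternative run.

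The libraries did not move together. The median difference from the Input mean over the 55 genes was 0.49 in miR-CLIP A, 0.19 in miR-CLIP B and -0.09 in miR-CLIP C, on the log2 scale. Over all tested genes it was -0.10, 0.06 and -0.28 in the same libraries, so miR-CLIP C was lowest there too. In all 3 miR-CLIP libraries, 11 members lay above the Input mean and 2 below it. Together these were 23.6% of the set, against 28.1% of all tested genes, so the share was near that of all genes. Another 15 were above it in A and B and below in C, 12 above in A and C but not B, 8 above in B alone, 4 above in B and C and 3 above in A alone. The SD of log2 values was larger in miR-CLIP than in Input for 50 of the 55 genes. Its median over members was 0.62 in miR-CLIP and 0.23 in Input, against 0.77 and 0.27 over all tested genes. The wider spread in miR-CLIP was thus not particular to the set.

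**Figure D2:**
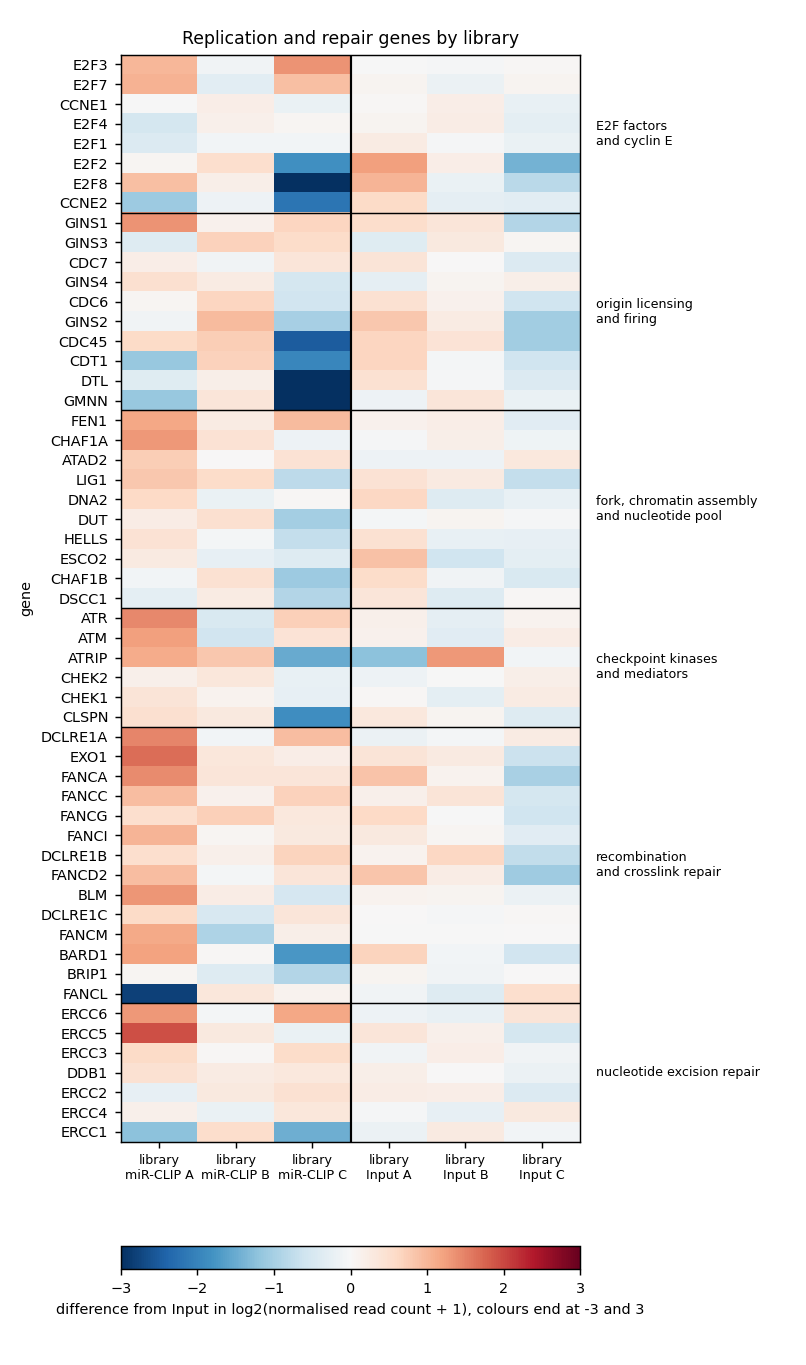
Difference from Input in log2(normalised read count + 1) for each of the 55 genes (rows, grouped by role) in each library (columns, miR-CLIP left of Input); miR-CLIP libraries are set against the mean of the 3 Input libraries and each Input library against the other two. Origin licensing genes were lowest in miR-CLIP C, with a median of -0.79, and crosslink repair genes highest in miR-CLIP A, with a median of 0.97.

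Of the 8 E2F and cyclin E genes, 0 passed the test by limma with all 6 libraries, 2 had positive and 6 negative log2 fold changes, and the median was -0.15. E2F3 (ENSG00000112242, chromosome 6, 20401906 to 20493715, GRCh38) had 3071, 1416 and 3888 normalised read counts in the miR-CLIP libraries, against 1528, 1514 and 1562 in the Input libraries. miR-CLIP A and C lay above all Input libraries, and miR-CLIP B lay below the lowest of them. The log2 fold change was 0.74 ± 0.37 (SE, n = 3 and 3; adjusted p = 0.611 by limma).

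E2F7 (ENSG00000165891, chromosome 12, 77021247 to 77065580) was also lowest in miR-CLIP B. It had 8060, 3177 and 7414 normalised read counts in the miR-CLIP libraries, against 4108, 3625 and 4096 in the Input libraries. Its groups overlapped through miR-CLIP B, and the log2 fold change was 0.55 ± 0.38 (SE, n = 3 and 3; adjusted p = 0.612 by limma). E2F1 (ENSG00000101412, chromosome 20, 33675683 to 33686404) had 130, 164 and 163 in the miR-CLIP libraries, against 194, 170 and 158 in the Input libraries. The groups overlapped and the log2 fold change was -0.19 ± 0.32 (SE, n = 3 and 3; adjusted p = 0.817 by limma).

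The cyclins E, which activate CDK2 at the start of S phase, gave unlike values. CCNE1 (ENSG00000105173, chromosome 19, 29811898 to 29824308) averaged 242 ± 33.6 in miR-CLIP and 241 ± 23.7 in Input (SD, n = 3 each), with a log2 fold change of 0.00 ± 0.29 (SE). CCNE2 (ENSG00000175305, chromosome 8, 94879770 to 94896678) had 14.5, 28.8 and 6.25 in the miR-CLIP libraries, against 42.3, 28.3 and 27.8 in the Input libraries. miR-CLIP A and C were below all Input libraries and miR-CLIP B was not, and the log2 fold change was -1.15 ± 0.64 (SE, n = 3 and 3; adjusted p = 0.611 by limma). CCNE2 shares 1629 exonic bases with INTS8 on the opposite strand, and no source used here gives the strand setting of the counting, so reads of these genes cannot be told apart there. E2F8 had 29.9, 17.9 and 0 in the miR-CLIP libraries, against 25.7, 14.1 and 10.4 in the Input libraries, and its log2 fold change of -0.99 turned to 0.54 without miR-CLIP C. E2F4 and E2F2 had log2 fold changes of -0.10 and -0.43.

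**Figure D3:**
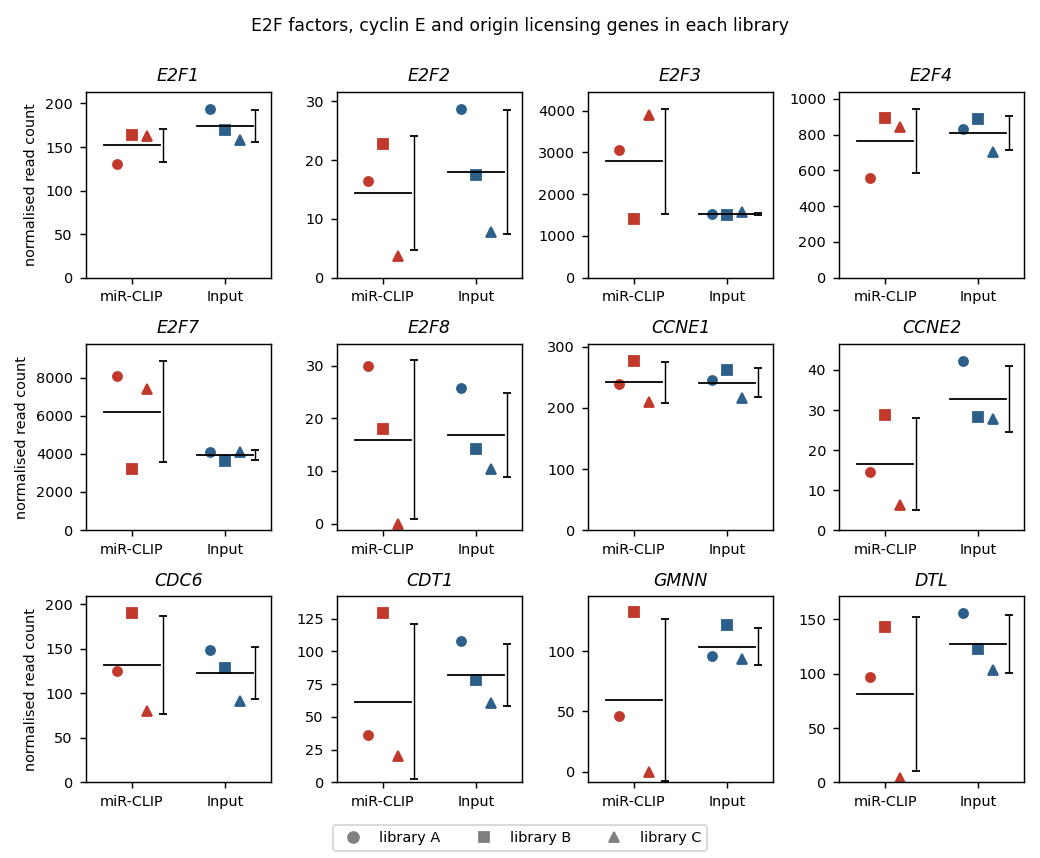
Normalised read counts of 12 E2F, cyclin E and origin licensing genes, with miR-CLIP left and Input right in each panel; marker shapes give the library letter, horizontal lines the mean and bars the SD (n = 3 each). E2F3 and E2F7 were high in miR-CLIP A and C and not in B, whereas CDT1, GMNN and DTL were, among the miR-CLIP libraries, highest in B and lowest in C.

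The 10 origin licensing and firing genes had 5 positive and 5 negative log2 fold changes, with a median of -0.01, and 0 passed the test by limma. Their median difference from Input was -0.03 in miR-CLIP A, 0.51 in miR-CLIP B and -0.79 in miR-CLIP C. GMNN, which encodes geminin (ENSG00000112312, chromosome 6, 24774931 to 24786099), had 46.5, 132 and 0 normalised read counts in the miR-CLIP libraries, against 95.5, 121 and 93.7 in the Input libraries. The count of 0 in miR-CLIP C allows a value of up to 3.75, the worth of 3 reads, for counting error only. The log2 fold change of GMNN was -2.49 ± 1.52 (SE, n = 3 and 3; adjusted p = 0.611 by limma) and -0.39 without miR-CLIP C. On all 6 libraries it was -0.82 by edgeR and -0.81 by DESeq2 on recovered reads.

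DTL, the substrate receptor that directs destruction of CDT1, had 97.1, 143 and 3.75 in the miR-CLIP libraries, against 156, 123 and 103 in the Input libraries. Its log2 fold change of -1.64 ± 1.13 (SE, n = 3 and 3) also rested on miR-CLIP C and was -0.09 without that library, and -0.67 by edgeR and -0.65 by DESeq2 with all 6 libraries. CDT1 (ENSG00000167513, chromosome 16, 88803213 to 88809258) had 36.1, 129 and 20.0 in the miR-CLIP libraries, against 108, 78.2 and 60.7 in the Input libraries. miR-CLIP A and C were below all Input libraries, miR-CLIP B was above them, and the log2 fold change was -0.80 ± 0.67 (SE, n = 3 and 3; adjusted p = 0.646 by limma).

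GINS1 (ENSG00000101003, chromosome 20, 25407727 to 25452628), a GINS subunit whose 3′ UTR holds an 8mer, ran the other way. It had 173, 73.5 and 105 in the miR-CLIP libraries, against 85.7, 79.8 and 44.2 in the Input libraries. The groups overlapped through miR-CLIP B, with a log2 fold change of 0.71 ± 0.47 (SE, n = 3 and 3; adjusted p = 0.611 by limma). CDC6 (ENSG00000094804, chromosome 17, 40287633 to 40304657) had 125, 190 and 80.0 in the miR-CLIP libraries, against 149, 128 and 91.1 in the Input libraries. Its groups overlapped, with the highest and the lowest library both miR-CLIP, and the log2 fold change was 0.04 ± 0.43 (SE, n = 3 and 3; adjusted p = 0.973 by limma). The other 5 genes had log2 fold changes from -0.39 (CDC45) to 0.28 (GINS3), with GINS2 at -0.06, GINS4 at 0.06 and CDC7 at 0.15.

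Among the 10 genes of forks, chromatin assembly and the nucleotide pool, 5 had positive and 5 negative log2 fold changes and the median was 0.01. FEN1 (ENSG00000168496, chromosome 11, 61792637 to 61797244) encodes the nuclease that trims the flaps of Okazaki fragments. It had 599.9, 319 and 519 normalised read counts in the miR-CLIP libraries, against 286, 293 and 229.9 in the Input libraries. All 3 miR-CLIP libraries lay above all 3 Input libraries, miR-CLIP B by the smallest margin. The log2 fold change was 0.79 ± 0.33 (SE, n = 3 and 3; unadjusted p = 0.041, adjusted p = 0.611 by limma). In the authors' deposited table FEN1 was the 1 member with a p-value under 0.05, at a fold of 1.78, a p-value of 0.0494 and an adjusted p-value of 1, against 1.87% of all genes in the authors' deposited table with a p-value under 0.05 and a fold above 1 and 0.944% with a fold below 1. FEN1 shares 49 exonic bases with FADS2 on its strand and 166 with TMEM258 on the other.

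The remaining genes of this group had log2 fold changes between -0.31 and 0.53. The highest was that of CHAF1A, the large subunit of chromatin assembly factor 1, with 688, 375 and 250.1 in the miR-CLIP libraries, against 273, 299 and 260.2 in the Input libraries. Its miR-CLIP libraries spread on both sides of Input, and CHAF1B, which encodes another subunit, had -0.24. ATAD2, a chromatin ATPase, had 0.40, LIG1, the ligase that seals Okazaki fragments, 0.19, and DNA2, a nuclease and helicase, 0.14. HELLS, a chromatin remodeler, had -0.11, DUT, which removes dUTP, -0.11, ESCO2, which acetylates cohesin, -0.13, and DSCC1, part of a clamp loader, -0.31.

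Of the 6 checkpoint genes, 5 had positive and 1 a negative log2 fold change, with a median of 0.12, and 0 passed the test by limma. ATR had 2790, 746 and 1673 in the miR-CLIP libraries, against 1103, 906 and 1069 in the Input libraries. ATM had 3110, 895 and 1770 in the miR-CLIP libraries, against 1411, 1143 and 1473 in the Input libraries. Both kinases were above all Input libraries in miR-CLIP A and C and below all of them in miR-CLIP B, with log2 fold changes of 0.57 ± 0.44 for ATR and 0.35 ± 0.43 for ATM (SE, n = 3 and 3 each; adjusted p = 0.635 and 0.752 by limma).

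CHEK1 (ENSG00000149554, chromosome 11, 125625136 to 125676255), the kinase that ATR activates, had 291, 239 and 188 in the miR-CLIP libraries, against 227, 196 and 252 in the Input libraries. The groups overlapped widely, with a log2 fold change of 0.07 ± 0.31 (SE, n = 3 and 3; adjusted p = 0.937 by limma). CHEK2, the kinase that ATM activates, had 0.09, and CLSPN, which encodes claspin, a mediator of CHEK1 activation, had -0.36. ATRIP had 5.16, 3.97 and 0 in the miR-CLIP libraries, against 0.612, 4.16 and 1.73 in the Input libraries, values worth only a few reads each. ATRIP also shares 1515 exonic bases with TREX1 on its own strand, so its level is uncertain.

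Of the 14 recombination and crosslink repair genes, 11 had positive and 3 negative log2 fold changes, with a median of 0.43, and 0 passed the test by limma. The median difference from Input was 0.97 in miR-CLIP A, 0.10 in miR-CLIP B and 0.31 in miR-CLIP C. DCLRE1A (ENSG00000198924, chromosome 10, 113834725 to 113854383), a nuclease of crosslink repair, had 398, 136 and 273 in the miR-CLIP libraries, against 132, 139.7 and 160.5 in the Input libraries. miR-CLIP A and C lay above all Input libraries and miR-CLIP B among them, with a log2 fold change of 0.77 ± 0.43 (SE, n = 3 and 3; adjusted p = 0.611 by limma).

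EXO1 (ENSG00000174371, chromosome 1, 241847967 to 241895148) encodes an exonuclease that resects DNA ends. It had 182, 72.5 and 65.0 in the miR-CLIP libraries, against 68.0, 64.0 and 41.6 in the Input libraries. Its high mean in miR-CLIP came from library A, and the log2 fold change was 0.74 ± 0.51 (SE, n = 3 and 3; adjusted p = 0.612 by limma).

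The Fanconi anaemia genes encode a core complex that marks FANCD2 and FANCI with ubiquitin at crosslinks. FANCA (ENSG00000187741, chromosome 16, 89737549 to 89816657), of the core complex, had 222, 105 and 105 in the miR-CLIP libraries, against 122, 86.5 and 52.0 in the Input libraries. FANCC (ENSG00000158169, chromosome 9, 95099054 to 95426796), another core subunit, had 246, 141 and 209 in the miR-CLIP libraries, against 137, 153 and 99.7 in the Input libraries. FANCD2 (ENSG00000144554, chromosome 3, 10026414 to 10101930) had 147, 74.5 and 100.02 in the miR-CLIP libraries, against 114, 85.7 and 46.8 in the Input libraries. In each of these genes miR-CLIP A was the highest library, and the groups overlapped. The log2 fold changes were 0.71 ± 0.48 for FANCA, 0.59 ± 0.37 for FANCC and 0.41 ± 0.47 for FANCD2 (SE, n = 3 and 3 each; adjusted p = 0.611, 0.611 and 0.732 by limma). FANCA shares 2302 exonic bases with ZNF276 on the other strand.

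FANCG and FANCI had log2 fold changes of 0.51 and 0.46, and FANCM, the translocase that anchors the core complex to DNA and whose 3′ UTR holds an 8mer in one transcript, had 0.13. FANCL, the ubiquitin ligase subunit, was the exception among the genes with a FANC symbol, at -0.78. It had 5.16, 53.6 and 45.0 in the miR-CLIP libraries, against 39.8, 34.9 and 52.9 in the Input libraries. Its low value was in miR-CLIP A alone. The nucleases DCLRE1B and DCLRE1C had 0.44 and 0.15, and the BLM helicase 0.35, while BARD1, the partner of BRCA1, had -0.17 and the BRIP1 helicase -0.40.

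In nucleotide excision repair, 6 of 7 genes had positive log2 fold changes and 1 a negative one, with a median of 0.34, and 0 passed the test by limma. ERCC6 (ENSG00000225830, chromosome 10, 49455368 to 49539538) encodes CSB, which acts where RNA polymerase stalls at lesions. It had 941, 361 and 841 in the miR-CLIP libraries, against 351, 343 and 451 in the Input libraries. miR-CLIP A and C were above all Input libraries and miR-CLIP B was among them, with a log2 fold change of 0.80 ± 0.39 (SE, n = 3 and 3; adjusted p = 0.611 by limma).

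ERCC3 (ENSG00000163161, chromosome 2, 127257290 to 127294176), a helicase of the repair factor TFIIH, had 1733, 1188 and 1699 in the miR-CLIP libraries, against 1105, 1277 and 1106 in the Input libraries. DDB1 (ENSG00000167986, chromosome 11, 61299451 to 61342596) had 8560, 7279 and 7701 in the miR-CLIP libraries, against 6677, 6210 and 5713 in the Input libraries. The DDB1 groups did not overlap, whereas miR-CLIP B brought those of ERCC3 together. The log2 fold changes were 0.39 ± 0.26 for ERCC3 and 0.34 ± 0.25 for DDB1 (SE, n = 3 and 3 each; adjusted p = 0.611 and 0.624 by limma).

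ERCC1 (ENSG00000012061, chromosome 19, 45407333 to 45478828) was the negative member, with 1132, 3840 and 973 in the miR-CLIP libraries, against 2477, 3020 and 2568 in the Input libraries. miR-CLIP A and C stood below all Input libraries and miR-CLIP B above all of them, with a log2 fold change of -0.73 ± 0.49 (SE, n = 3 and 3; adjusted p = 0.611 by limma). ERCC1 shares 1593 exonic bases with CD3EAP on the opposite strand. ERCC4, its partner in the nuclease, had 0.10, and ERCC2, the other TFIIH helicase, 0.17. ERCC5, the nuclease that cuts on the other side of the lesion, had 0.67, with 239, 76.5 and 53.8 in the miR-CLIP libraries, against 74.1, 67.4 and 48.6 in the Input libraries. ERCC5 shares 5213 exonic bases on its own strand with the readthrough gene BIVM-ERCC5, so its level is uncertain.

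miR-CLIP library B was the one library whose removal changed the calls. Without it, 8 of the 55 genes rose in miR-CLIP (14.5%) and 2 fell (3.64%) by limma with adjustment over all 8506 genes, against 12.6% of all tested genes higher and 16.1% lower. The share of members that rose was thus near that of all genes. Removing any other single library gave 0 calls in the set by limma. The genes that rose were ATM, ATR, DCLRE1A, E2F3, E2F7, ERCC3, ERCC6 and FEN1, and those that fell were CDT1 and ERCC1.

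The fit without miR-CLIP B had 2 miR-CLIP and 3 Input libraries, so its p-values rest in part on how alike those 2 libraries were. E2F3 rose by 1.17 on the log2 scale without miR-CLIP B (adjusted p = 0.0027 by limma, with a range of 0.0027 to 0.884 over its alternatives). FEN1 rose by 1.06 (adjusted p = 0.00978 by limma, range 0.00978 to 0.884) and ERCC6 by 1.23 (adjusted p = 0.0045 by limma, range 0.0045 to 0.884). E2F7 rose by 0.97 (adjusted p = 0.00504 by limma, range 0.00504 to 0.895). In these genes the 2 remaining miR-CLIP libraries lay together above Input, as their values above show. ATR rose by 1.08 (adjusted p = 0.0133 by limma, range 0.0133 to 0.936), ATM by 0.81 (adjusted p = 0.0461 by limma, range 0.0461 to 0.955), DCLRE1A by 1.19 (adjusted p = 0.014 by limma, range 0.014 to 0.884) and ERCC3 by 0.56 (adjusted p = 0.0345 by limma, range 0.0345 to 0.884). ERCC1 fell by 1.35 on the log2 scale (adjusted p = 0.00184 by limma, range 0.00184 to 0.906), and CDT1 fell by 1.54 (adjusted p = 0.0384 by limma, range 0.0384 to 0.940).

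**Figure D4:**
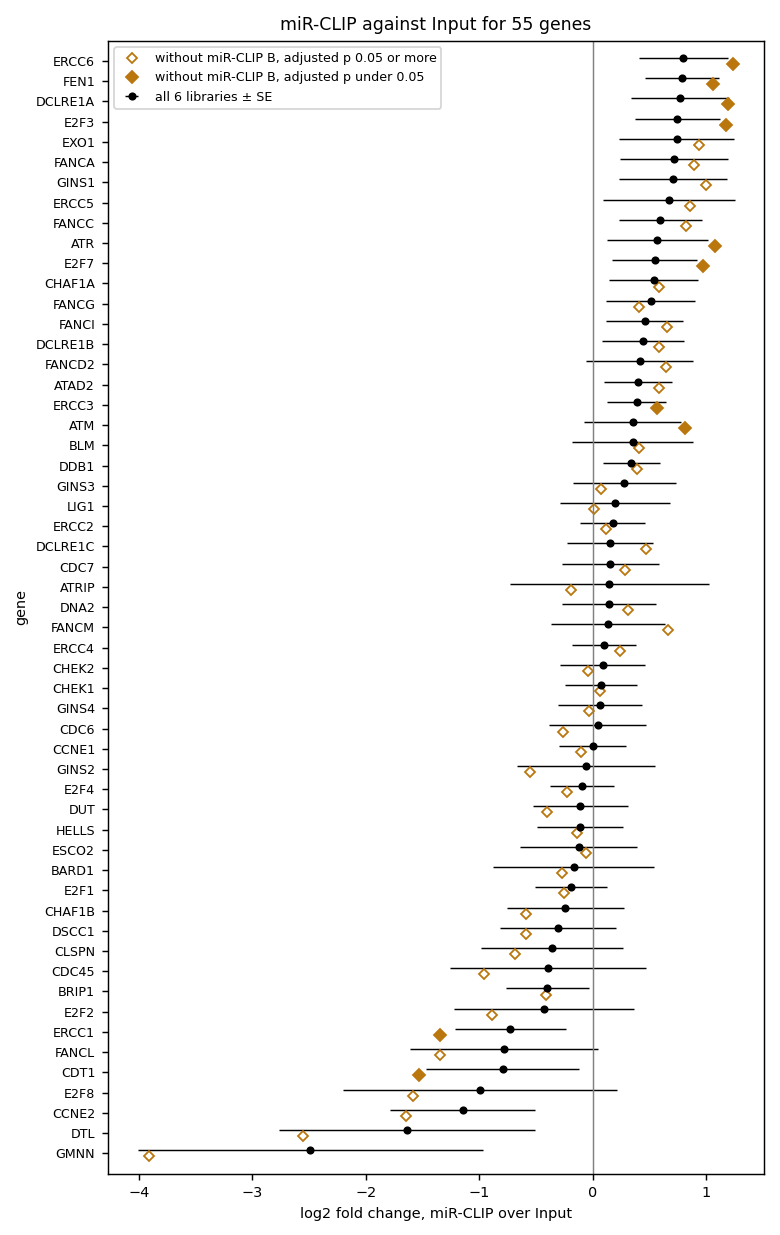
Log2 fold change of miR-CLIP over Input for the 55 genes (y axis, ordered by value); black points with bars are the fit of all 6 libraries ± SE, and diamonds the fit without miR-CLIP library B, filled where the adjusted p by limma was under 0.05. Filled diamonds stand at 8 genes to the right of zero and at CDT1 and ERCC1 to the left.

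Transcript length moved with these differences. The principal transcripts of the 55 genes ran from 1262 nucleotides (GMNN) to 13147 (ATM), with a median of 3940, against a median of 3156 over tested coding genes. Over the 55 genes, Spearman's rho of the difference from Input with length was 0.51 in miR-CLIP A, -0.43 in miR-CLIP B and 0.23 in miR-CLIP C, against 0.07, -0.27 and 0.11 in the Input libraries. Over 6344 tested coding genes it was 0.44, -0.50 and 0.36 in the miR-CLIP libraries. These are descriptions over genes that share libraries, with no test. The 27 longer members had a median difference of 0.94 in miR-CLIP A, 0.06 in miR-CLIP B and 0.30 in miR-CLIP C, and the 28 shorter ones had 0.24, 0.25 and -0.21 in the same libraries. ATM, ATR and ERCC6 had the longest transcripts among the genes that rose without miR-CLIP B, and GMNN the shortest of the set. 

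With the linear trend on length removed in each library and miR-CLIP B left out, an alternative chosen after the data were seen, 2 members rose and 2 fell by limma, against 6.1% of tested genes higher and 13.3% lower. FEN1 rose by 1.09 (adjusted p = 0.0147) and E2F3 by 0.83 (adjusted p = 0.0199), and ERCC1 fell by 1.58 (adjusted p = 0.00419) and CDT1 fell by 1.68 (adjusted p = 0.0491), all by limma and within the adjusted p ranges given above. The other 6 members that rose without miR-CLIP B missed the threshold in that fit by limma. Some kept a log2 fold change near the earlier one or above 0.5, with E2F7 at 0.54 (adjusted p = 0.0531), ERCC3 at 0.51 (adjusted p = 0.0675), DCLRE1A at 0.89 (adjusted p = 0.0939) and ERCC6 at 0.63 (adjusted p = 0.164) by limma. ATR was at 0.46 (adjusted p = 0.29) and ATM at -0.04 (adjusted p = 0.945) by limma.

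**Figure D5:**
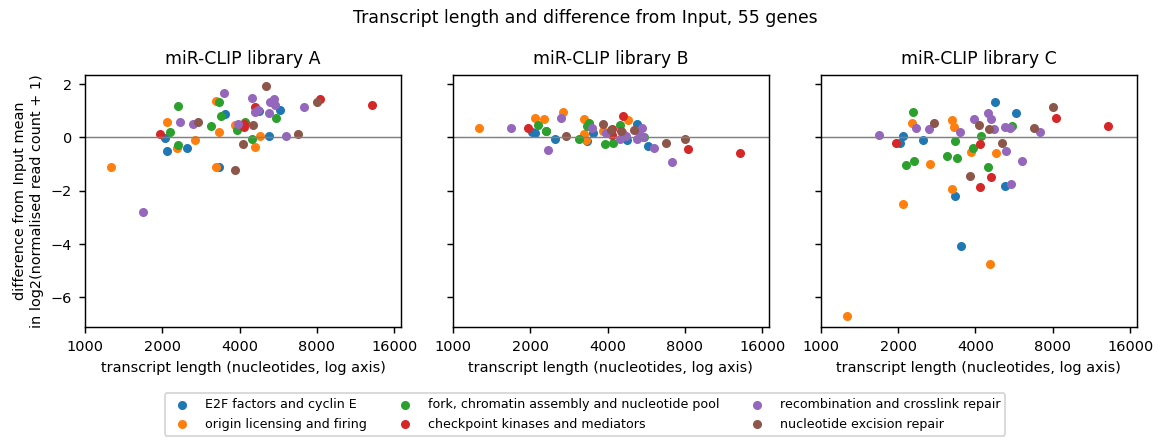
Difference from the Input mean in log2(normalised read count + 1) (y axis) against transcript length in nucleotides (x axis, log scale) for the 55 genes in each miR-CLIP library, coloured by role. Longer transcripts lay higher in miR-CLIP A and C (Spearman's rho 0.51 and 0.23) and lower in miR-CLIP B (-0.43).

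The miR-146a sites, whose sequences are given above, were set against the fold changes. The 11 members with a site had a median log2 fold change of 0.10 and the 44 without one 0.15. Over the tested coding genes the medians were 0.08 for 1300 genes with a site and -0.12 for 4992 without. Without miR-CLIP B the medians were 0.24 with and 0.07 without a site among members, against 0.22 and -0.22 among coding genes. Transcripts with a site were also longer, with a median of 4810 nucleotides against 3834.5 in the set, and 4744 against 2857.5 over coding genes, and the part of length in these medians was not tested. FANCC, GINS1, ERCC6 and ATR had a site and values above 0.5, while CDC6, GINS2, HELLS, ERCC4, FANCM, E2F2 and CHAF1B had a site and values between -0.43 and 0.13. E2F3, E2F7, FEN1, DCLRE1A and ERCC3 had no site. The longest 3′ UTR need not belong to the principal transcript: that of HELLS, at 4054 nucleotides, was longer than its principal transcript, at 3099. Whether the 3′ UTR of 3818 nucleotides searched for ATR belongs to its principal transcript, at 8249, was not checked. Which transcripts these cells expressed was not tested.

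Promoters were examined because many of these genes shared an order among the Input libraries as well: 38 of the 55 were higher in Input A than in Input C (69.1%), against 4435 of the 8506 tested genes (52.1%), and 25 were ordered A, B, C from high to low (45.5%), against 1646 of the tested genes (19.4%). The RefSeq promoter window, 250 bases before to 50 after the gene start, was searched on both strands for TTCCCGC and TTGGCGC, forms of the E2F motif. At least 1 was present, in any window of the gene, in 28 of the 47 members with a promoter in the table (59.6%). This compares with 2993 of all 27305 genes there (10.96%). The median ratio of Input A to Input C was 1.38 for the 28 genes with a motif, 1.03 for the 19 without and 1.41 for the 8 with no promoter in the table, and their median log2 fold changes of miR-CLIP over Input were -0.01, 0.34 and -0.03. These windows, on GRCh38.p14 and 29 bases long with the motif in capitals, show examples.
E2F1, chr20:33686387-33686415 on the minus strand: gcaaaaaggatTTGGCGCgtaaaagtggc
CDC6, chr17:40287876-40287904 on the plus strand: gccattcggatTTGGCGCgagcgcggctg
GMNN, chr6:24775323-24775351 on the plus strand: ctgggtcggttTTGGCGCgctctcacttc
CDT1, chr16:88803755-88803783 on the plus strand, read on the opposite strand: cgggaaatttgGCGGGAAccgcgcccgcc

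A match is a description and not a site of binding, and each group has few libraries. Among genes with a motif, E2F2, E2F1, CDC6 and CDT1 had Input A to Input C ratios of 3.69, 1.23, 1.63 and 1.78, while GMNN and E2F3 had 1.02 and 0.98. The E2F genes and known E2F targets were named into the list, so the share of members with a motif describes how it was made up.

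A fixed list of 126 other replication and repair genes gave 54 that were in the table, all tested; the rest of the list was not analysed here. None passed by limma with all 6 libraries (0 higher and 0 lower, with 0 and 2 at an unadjusted p under 0.05), 21 had positive and 33 negative log2 fold changes, and the median was -0.15. Groups lay apart for 1 gene higher (1.85%) and 6 lower (11.1%) in miR-CLIP, against 5.64% and 7.34% of all tested genes. Without miR-CLIP B, 3 rose (5.56%) and 15 fell (27.8%) by limma, against 12.6% and 16.1% of all tested genes. With the length correction as well, 2 rose and 12 fell, against 6.1% and 13.3%. The 17 excision and mismatch repair genes had the lowest median of the 5 lists, -0.52, with 1 that rose and 9 that fell without miR-CLIP B, and 0 that rose and 7 that fell with the length correction as well, beside the same shares of all genes. Their median transcript length was 2017 nucleotides, against 2594 over all tested genes. GTF2H1, a TFIIH subunit, had 407, 1529 and 280.1 in the miR-CLIP libraries, against 1385, 1319 and 1717 in the Input libraries. EME1, a nuclease subunit, had 4.13, 23.8 and 0 in the miR-CLIP libraries, against 33.1, 27.4 and 29.5 in the Input libraries. In miR-CLIP A and C both genes were far below all Input libraries, while in miR-CLIP B EME1 was just below them and GTF2H1 among them. The crosslink nuclease FAN1 and the nuclease subunit EME2 were the 2 double-strand break and crosslink repair genes that rose without miR-CLIP B.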

How the data were processed

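Normalised read counts in 3 miR-CLIP and 3 Input libraries were compared for 55 genes, a set and lists that were chosen with earlier results of these data known. The authors' deposited values are a signal, 1 per gene and library. Each divides by the smallest value above 0 of its column into a whole number, within a tolerance of 1e-06, so reads were recovered by division, and the values are called normalised read counts. The authors' fold change (a linear ratio), p-value and adjusted p-value for each gene are in the same table, per the file headers. Build GRCh38 and the tools STAR 2.5.1b, Trimmomatic 0.35 and DESeq2 1.22.2 are named in the submitters' processing notes without a role, and no source used here gives the counting program or its strand setting.

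Genes were kept where 3 or more libraries had a value of 1 or more. The main test was a two-sided limma-trend fit of log2(value + 1), run in R 4.3.3 with limma 3.58.1, with all 6 libraries in 1 fit, group as the only term and Benjamini-Hochberg adjustment over the 8506 genes kept. The fits were tested on simulated data with the same spread in both groups, which does not cover the wider spread among the miR-CLIP libraries. Alternatives were edgeR 4.0.16 and DESeq2 1.42.0 on recovered reads, pseudocounts of 0.5 and 5, no filter, a mean of at least 10, upper-quartile factors, removal of the trend on transcript length, a replicate block, and leaving out each library. Differences are miR-CLIP minus Input. Floors of 3 reads cover counting error only.

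Gene positions, principal transcripts and 3′ UTRs came from GENCODE release 29. Of 18234 gene identifiers, 18143 were found there, among them all 55 members, and 53 members had the same coordinates. RefSeq tables on GRCh38.p14 supplied the miRNA sequence and 47 of the members' promoters. The columns carry letters and the labels numbers, with nothing to tie them, so columns were assigned to groups only. Values in every library are given for the 12 members with the smallest limma p, the 3 with the highest Input level per kb, and E2F1, CCNE1, CCNE2, CDC6, CDT1, CHEK1 and FANCD2; values of other members in every library (DTL, E2F8, ATM, ATR, ATRIP, CHAF1A, FANCL and ERCC5) and those of GTF2H1 and EME1 were chosen after they had been seen. The labels name no batch. A sequence feature of some 3′ UTR sites is not reported here.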

Additional observations from a re-analysis of the deposited data

How the results depend on the processing

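Counts of calls depended mainly on miR-CLIP library B. Leaving out 1 library at a time gave 0 to 1069 genes higher and 0 to 1373 lower in miR-CLIP by limma, and 0 to 8 members higher and 0 to 2 lower; the counts above 0 came from leaving out miR-CLIP B. DESeq2 called 2 genes higher, neither a member. The length correction with miR-CLIP B left out gave 517 genes higher and 1124 lower, with 2 members higher and 2 lower. The other alternatives gave 0 calls. The members' median log2 fold change stayed within 0.00 to 0.35 when 1 library was left out, and was -0.10 with upper-quartile factors, 0.00 with the length correction and -0.04 with that correction and miR-CLIP B left out.

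Of 399 values for 25 single genes, 361 kept their direction and side of the threshold, 14 passed it where the main result had not, and 24 changed sign. With upper-quartile factors CDC6 was at -0.20 and CHEK1 at -0.17. With the length correction CCNE1 was at 0.047, CDC6 at -0.14, CHEK1 at -0.068, ATM at -0.10 and ATRIP at -0.022. With that correction and miR-CLIP B left out, CDC6 was at -0.61, CHEK1 at -0.21, ATM at -0.040 and ATRIP at -0.51. With 1 library left out at a time, CCNE1 ran from -0.10 to 0.095, CDC6 from -0.26 to 0.35, CHEK1 from -0.081 to 0.24, E2F8 from -1.94 to 0.54, ATM from -0.084 to 0.81 and ATRIP from -0.35 to 0.97. The cause of these changes was not tested.

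Libraries that share a letter had deviations from their group means that correlated at 0.14 (A), 0.11 (B) and 0.09 (C), against -0.04 to -0.08 for other pairs. Each library correlated best with its own letter, a hint from the data, but the labels do not tie letters to samples, so no pairing was assumed. With the replicate block by letter, 0 genes were higher and 0 lower by limma and the members' median was 0.14. Depth limits the low genes: ATRIP had 0 to 5 reads per library, E2F2 3 to 47, E2F8 0 to 42 and CCNE2 5 to 69.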
